A study of Mus musculus with 8 samples.

Results

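Chromatin loops at 8 genes of the interleukin-1 (IL-1) family and its receptors were taken from H3K27ac HiChIP of HPC-7 cells, a mouse hematopoietic progenitor line. HiChIP ligates DNA that lies close together in the nucleus and pulls down the products with an antibody. The antibody used here binds H3K27ac, the acetylation of histone H3 found at enhancers and promoters in use. The cells carried either p42, the full-length form of the transcription factor CEBPA, or p30, the shorter form made by leukemia-associated mutants. Each line was untreated (UT) or given 100 ng/mL of the TLR4 ligand lipopolysaccharide (LPS) over 2 h, with 2 replicates in each of 4 groups and thus 8 libraries. All groups shared a retroviral transgene in GFP-sorted cells by the study's methods, and no line without a transgene was analysed here. The study's results describe endogenous CEBPA in HPC-7 cells as very low. By the methods, the lines named p42 HPC-7 and p30 HPC-7 carry fusions to ERT2 that enter the nucleus with 4-hydroxytamoxifen, and the sample labels do not mention the fusion.

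The genes are Il1a, Il1b, Il1rn, Il18, Il1r1, Il1r2, Il1rap and Il1rl1, which is 8 of the 21757 protein-coding genes on the 21 chromosomes of the lists. The lists give loops, meaning pairs of bins of 5 kb whose contacts exceeded the expectation of the loop caller at a q-value under 0.01. A loop was assigned to a gene when 1 bin held the canonical start site of GENCODE (GRCm39). The authors deposited 1 list per group with both replicates pooled. No spread between replicates could therefore be computed, and each comparison is between those libraries, not between the conditions.

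IL-1α and IL-1β, the products of Il1a and Il1b, are inflammatory cytokines that bind the same receptor, and the product of Il1rn occupies that receptor without signaling. The receptor chain encoded by Il1r1 signals once it is joined by the shared chain from Il1rap, whereas Il1r2 encodes a decoy that binds ligand and does not signal. Il18 encodes a related cytokine, and Il1rl1 encodes ST2, the receptor for IL-33, known from mast cells, basophils and innate lymphoid cells. In myeloid cells Il1b is a classical target of TLR4 signaling.

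In p30 the UT list held 80489 loops and the LPS list 94609, and in p42 the UT list held 158233 and the LPS list 78591. The number of contacts in the caller's model, used as depth, ranged from 14503330 to 18999991, and bins with an H3K27ac peak had a mean coverage that ranged from 1939 to 2911 reads. Of 10 blood progenitor markers, 10 had a start-site loop in every list. None of 4 T cell and 4 fibroblast markers had one, while 2 of 4 B cell and 3 of 4 macrophage markers had a loop in at least 1 list. In these bulk libraries, fewer cells with a loop and a weaker loop per cell cannot be told apart. Because the p42 UT list was the longest, counts are also given for lists of equal size, in which each list was reduced to its 78591 most significant loops. This left p42 LPS whole and held p42 UT to q-values of at most 6.98e-05. The largest q-value kept was 0.00897 in p30 UT and 0.00379 in p30 LPS.

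More loops started from these genes in the p42 lists than in the p30 lists as deposited. Start-site loops of the 8 genes numbered 1 in untreated p30, 5 in p30 with LPS, 11 in untreated p42 and 8 in p42 with LPS. These came from 1, 3, 4 and 4 of the 8 genes, in the same order. Among all protein-coding genes, 37.2% had a start-site loop in untreated p30, 38.8% in p30 with LPS, 44.8% in untreated p42 and 35.1% in p42 with LPS. Il1a and Il1rap had none in any list, and Il1rl1 had the most in each of the 4 lists. The 25 listings were 16 different bin pairs, of which 10 were listed in p42 alone, 3 in p30 alone and 3 in both isoforms. Among the 66960 pairs with a start-site bin of any protein-coding gene, 37.3% were in p42 alone, 15.9% in p30 alone and 46.8% in both, and 17.7% were in all 4 lists. Of the 16 pairs none was in all 4, 3 pairs were in 3, 3 were in 2 and 10 were in 1. All 25 listings joined 2 bins with an H3K27ac peak, at distances of 10 to 80 kb, with 11 to 48 contacts and 1.86 to 7.98 times the expected number. Of all loops 88.7% to 91.3% per list joined peak bins, with a median distance of 35 to 45 kb, 19 to 20 contacts and a ratio of 4.24 to 4.34. In lists of equal size the genes had 1 loop in untreated p30, 5 in p30 with LPS, 4 in untreated p42 and 8 in p42 with LPS. When all annotated start sites were used, the order of the LPS lists turned, with 13 loops in p30 and 12 in p42.

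**Figure D1:**
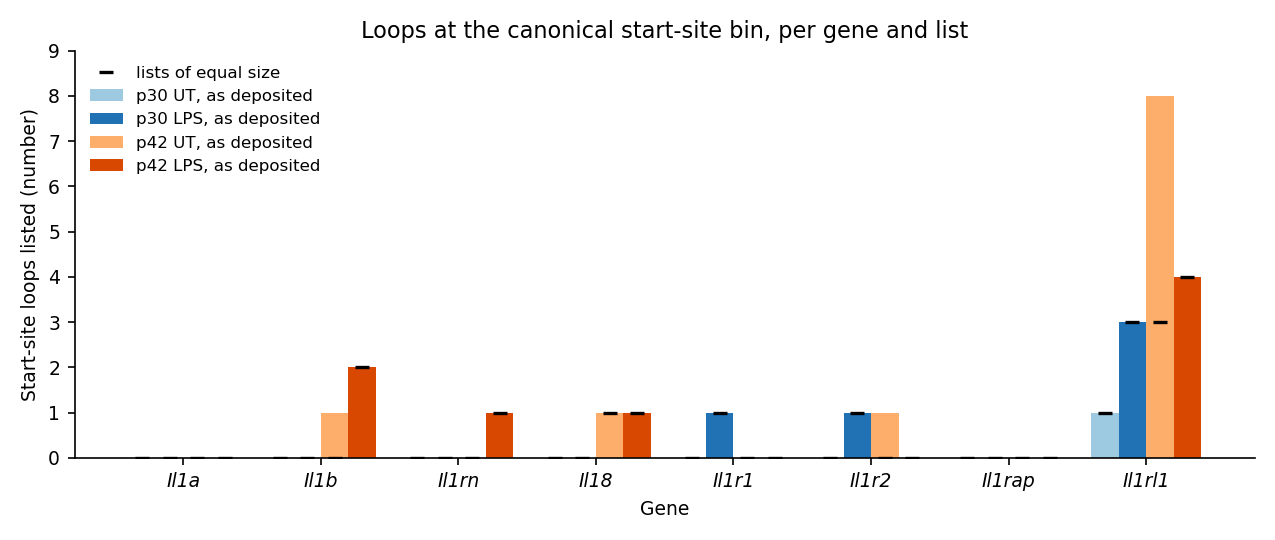
Number of loops at the canonical start-site bin (vertical axis) for each of the 8 genes, with 1 bar per deposited list and a dash for the list of equal size. Il1rl1 reached 8 loops in p42 UT and 3 of them remained at equal size, whereas Il1a and Il1rap stayed at 0 in every list.

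Among the ligands, Il1b had loops in the p42 lists and in neither p30 list. It lies on chromosome 2 from 129206490 to 129213059 on the minus strand, and its start site is in the bin from 129210001 to 129215000. Both p30 lists held 0 loops of this bin, while p42 UT held 1 and p42 LPS held 2. The loop found in both p42 lists reached 10 kb along the gene and past its end, to the intergenic bin from 129200001 to 129205000. It held 36 contacts in p42 UT against 17.2 expected, and 44 contacts in p42 LPS against 18.9 expected. The second loop, in p42 LPS, reached 70 kb along the gene to the bin from 129140001 to 129145000, which lies over the end of Il1a. It held 17 contacts against 2.23 expected, or 7.63 times the expected number, at a q-value of 1.35e-07. This ratio was exceeded by 1 of the other listings. In lists of equal size Il1b kept both p42 LPS loops and had none in the other lists.

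A list holds significant pairs alone, so that a pair missing from it may still have contacts below the number needed for listing. For the 70 kb pair of Il1b, that bound was 10 contacts in p30 UT, 9 in p30 LPS and 9 in p42 UT, all below the 17 listed in p42 LPS. For the 10 kb pair it was 41 contacts in p30 UT and 37 in p30 LPS, which is above the 36 contacts of p42 UT and below the 44 of p42 LPS. The 10 kb loop was thus not detectable as different between p30 and p42 in untreated cells at this depth. These bounds assume for p30 the coverage that the bins had in p42, since no bin of these pairs appears in a p30 list, and for the 70 kb partner in p42 UT the coverage it had after LPS. They also assume that the caller tested the pair in that list, which the lists do not show. Up to 100 kb from the start site to either side, p30 had 0 loops in UT and 2 after LPS, and p42 had 2 and 6. At equal size p30 had 0 and 2, and p42 had 0 and 6.

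The promoter of Il1b and the bin at 10 kb are shown because they are the anchors of the loop listed in both p42 lists. The 250 bases before the start site are chr2:129213060-129213309 on the minus strand (GRCm39, primary assembly as given by GENCODE), written 5′ to 3′.
Il1b: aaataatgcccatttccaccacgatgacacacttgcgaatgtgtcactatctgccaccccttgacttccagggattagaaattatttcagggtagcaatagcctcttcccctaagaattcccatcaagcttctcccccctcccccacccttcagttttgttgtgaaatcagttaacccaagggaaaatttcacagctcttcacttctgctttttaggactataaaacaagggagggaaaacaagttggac
They held no match to any of 5 motifs that were searched on both strands. These were TGANTCA (AP-1), TTGCNNAA (C/EBP), TGATGNAA (a C/EBP-ATF element), GGGANNTTC (NF-kB) and AGGAAGT (PU.1). Among 21757 promoters of the same length 6.18%, 9.34%, 3.39%, 3.46% and 7.12% had a match, in that order. No match says that these letters are absent from this window.

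The bin at 10 kb held 3 AP-1 matches, 1 C/EBP match and 2 matches to the C/EBP-ATF element. Over the 64985 peak bins of the lists the median was 1, 2 and 1 match per bin for these motifs. Matches are printed in capitals with 10 bases on each side, on the strand of the match, and a palindromic AP-1 match counts once.
AP-1, chr2:129200349-129200375 (+ strand): ccgctaaggtTGATTCAagacaccctt
C/EBP, chr2:129200772-129200799 (- strand): tccctctgccTTGCTAAAaactgttaca
C/EBP-ATF element, chr2:129201570-129201597 (- strand): gagggagcttTGATGAAAtgccaaacag
AP-1, chr2:129202730-129202756 (+ strand): taaggatacaTGACTCActcaacccca
AP-1, chr2:129203337-129203363 (+ strand): gtttagtcatTGACTCAgatccaggaa
C/EBP-ATF element, chr2:129204794-129204821 (+ strand): agttccatatTGATGCAAagagccaggt
None of these 6 matches overlapped an exon of a protein-coding gene. A match is a description of the sequence and no evidence of binding.

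Contacts of the 10 kb loop were compared between p42 LPS and p42 UT with the exact binomial test, two-sided and adjusted by Benjamini-Hochberg over the 59847 loops of both lists. Of the 80 contacts, 55.0% came from p42 LPS (95% Wilson interval 44.1 to 65.4, which like all intervals here covers counting error alone). The modelled contacts of both lists gave 45.5%, and the adjusted p was 0.652. Coverage of the start-site bin was 2646 reads in untreated p42 and 2662 in p42 with LPS. Relative to the mean of peak bins in each list it was 0.909 and 1.37, a log2 difference of 0.60 and past 1.5-fold, as were 1.83% of the 6597 start-site bins in both lists. Over all start-site bins in both lists the median difference was -0.13. Scaled to modelled contacts Il1b had a difference of 0.27, short of 1.5-fold, and the median was -0.46. Scaled to the median of start-site bins they were 0.74, past 1.5-fold, and 0.01. The bin was in no p30 list, so its coverage there is unknown.

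Il1a lies next to Il1b, from 129140291 to 129152098 on the minus strand, and encodes the other agonist of the receptor. Its start-site bin from 129150001 to 129155000 was in none of the lists. The bin upstream of it had 1 loop in untreated p42 and 2 in p42 with LPS, and the bin downstream had 1 in p42 LPS. One of these joined the bin upstream of the Il1a start to the bin upstream of the Il1b start in p42 UT, 60 kb apart with 10 contacts. In p30 neither neighboring bin had a loop.

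Il1rn, the gene of the receptor antagonist, lies on chromosome 2 from 24226865 to 24241506 on the plus strand. Its canonical start-site bin had 1 loop, in p42 LPS, with an intergenic bin 25 kb upstream toward Il1f10. It held 21 contacts against 5.82 expected. In the other lists the pair could hold at most 16 contacts in p30 UT, 15 in p30 LPS and 18 in p42 UT. A second start site, at 24235300, lies within the gene, in a bin 10 kb from the canonical start-site bin. That bin had 1 loop in untreated p30, 4 in p30 with LPS, 4 in untreated p42 and 2 in p42 with LPS. The same upstream bin was a partner of this second site in p30 LPS with 14 contacts, in p42 UT with 18 and in p42 LPS with 19. Loops of Il1rn were thus not particular to p42 LPS once the second start site was counted.

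The Il1rn promoter, chr2:24226615-24226864 on the plus strand, is shown because it held the single motif match found in the 8 promoters. This was an AP-1 match from -134 to -128 relative to the start, in capitals.
Il1rn: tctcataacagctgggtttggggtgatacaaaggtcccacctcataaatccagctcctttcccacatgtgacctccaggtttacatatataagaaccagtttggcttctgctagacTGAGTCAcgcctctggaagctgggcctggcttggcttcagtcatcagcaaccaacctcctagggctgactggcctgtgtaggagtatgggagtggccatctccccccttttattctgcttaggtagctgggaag

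Il18 lies on chromosome 9 from 50466081 to 50493633 on the plus strand. Its canonical start-site bin was joined to the bin 10 kb upstream in both p42 lists, with 42 contacts in UT and 33 after LPS. This was 2.41 and 2.50 times the expected number. The partner bin holds the start site of Bco2, a carotenoid-cleaving enzyme, and another start site of Il18 itself. This bin had 0 loops in UT and 1 after LPS with p30, and 4 and 1 with p42. The bin between them had 0 and 1 with p30, and 1 and 0 with p42. Both p30 loops, of 19 and 14 contacts, reached the same upstream bin, so that Il18 had loops near its start in p30 LPS as well. In p30 the pair could have held up to 32 contacts in UT and 29 in LPS, below the listed values. Of the 75 contacts in p42, 44.0% came from LPS (33.3 to 55.3) against 45.5% by modelled contacts, with an adjusted p of 1 in the exact binomial test. Start-site coverage was 1768 reads in untreated p42 and 1246 in p42 with LPS, or 0.607 and 0.643 times the mean of peak bins.

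Among the receptors, Il1rl1 had 16 of the 25 listings. It lies on chromosome 1 from 40468730 to 40504575 on the plus strand, with the canonical start in the bin from 40475001 to 40480000. With p30 this bin had 1 loop in UT and 3 after LPS, and with p42 it had 8 in UT and 4 after LPS. Its partners were 2 upstream bins and 7 downstream bins. The farthest were 55 to 80 kb away in Il18r1 and Il18rap, the neighboring genes of the IL-18 receptor chains. At equal list size they were 1, 3, 3 and 4, so that p42 UT held no more than the LPS lists at equal size.

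The partners of Il1rl1 at 65 kb, 75 kb and 20 kb upstream were listed in 3 of the 4 lists. The pair with the bin 65 kb downstream, over Il18r1, was missing from p30 UT, where it could hold up to 11 contacts. It had 12 contacts in p30 LPS, 29 in untreated p42 and 12 in p42 with LPS. The bin 75 kb downstream, which holds the Il18rap start site, had 13 contacts in p30 LPS, 19 in untreated p42 and 13 in p42 with LPS, and at most 10 in p30 UT. The bin 20 kb upstream had 23, 21 and 20 contacts in the same lists, and at most 20 in p30 UT. The first pair was thus highest in p42 UT and equal in both LPS lists, whereas the last ranged from 20 to 23. Over expected, the first pair had a ratio of 4.95 in p30 LPS, 7.98 in untreated p42 and 4.06 in p42 with LPS.

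Several Il1rl1 pairs were listed once. In p42 UT these were the bins at 35, 55 and 80 kb downstream with 13, 14 and 19 contacts, and the bin 10 kb upstream with 48. The 10 kb bin holds a distal start site of Il1rl1, at 40468730. The bin at 60 kb was listed in p30 UT with 11 contacts, where up to 11 contacts could be present in p42 UT and in p42 LPS without being listed. The pair at 25 kb was in both p42 lists, with 18 contacts in UT and 16 in LPS. It could hold at most 15 contacts in p30 UT and 12 in p30 LPS. The distal start site itself had 3 loops in untreated p30, 2 in p30 with LPS, 6 in untreated p42 and 2 in p42 with LPS.

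**Figure D2:**
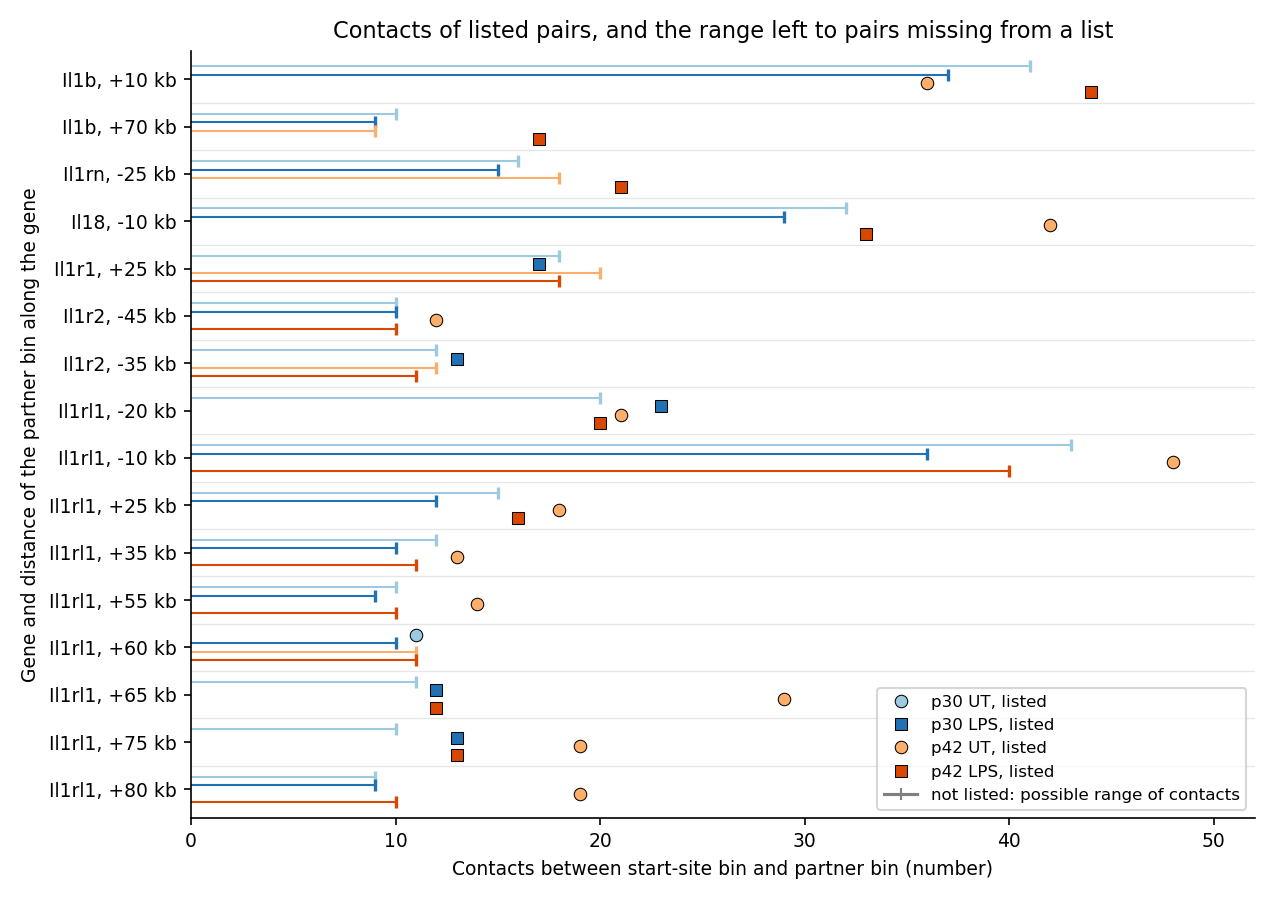
Contacts (horizontal axis, number) of the 16 start-site pairs, 1 row per gene and distance of the partner bin along the gene. Filled symbols are listed pairs, and a line ending in a bar is the range possible for a pair missing from a list. The Il1rl1 pair at 65 kb had 29 contacts in p42 UT while p30 UT was limited to 11, whereas the Il1b pair at 10 kb could reach 41 contacts in p30 UT.

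Over the 39 missing combinations of pair and list, the bound was below the highest listed number of contacts in 34 and at or above it in 5. In 3 of them the bound was below a factor of 0.5 of that number. A listed pair exceeds the threshold of its own list, so that a bound slightly below it follows largely from the listing rule. These counts are not scaled to depth, and the 34 were not tested as differences. In 19 of the 39 both bins were in the list through other loops, so that their coverage was measured. In the rest, among them every pair of Il1b, Il18, Il1r1, Il1r2 and Il1rn, the coverage of a missing bin was taken from other lists. For those the lists do not show whether the caller tested the pair.

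Contacts of Il1rl1 loops were tested where both lists held the loop. Between p42 LPS and p30 LPS there were 3 such loops, and the exact binomial test called none of them (adjusted p of 1 for each, against 1.59% called among 46110 shared loops). Between p42 LPS and p42 UT there were 6 member loops, 4 of them at Il1rl1, and none was called, against 1.47% of all shared loops. The lowest unadjusted p was 0.041, for the 65 kb pair of Il1rl1, with an adjusted p of 0.456. Of its 41 contacts in p42, 29.3% came from LPS (17.6 to 44.5) against 45.5% by modelled contacts. The other 2 contrasts, p42 UT with p30 UT and p30 LPS with p30 UT, shared no loop of these genes and could not be tested.

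Coverage of the Il1rl1 start-site bin was 2585 reads in untreated p30, 2147 in p30 with LPS, 3030 in untreated p42 and 2121 in p42 with LPS. Relative to the mean of peak bins it was 1.07, 0.959, 1.04 and 1.09, and no contrast passed 1.5-fold. Of all start-site bins in both lists, 5.15% passed it between p42 and p30 in UT and 5.50% in LPS. Between LPS and UT in p30, 2.28% passed. Bins farther downstream varied more between the lists. The bin at 65 kb had a relative coverage of 2.49 in untreated p30, 2.58 in p30 with LPS, 5.00 in untreated p42 and 3.56 in p42 with LPS. The Il18rap start-site bin at 75 kb had 2.15, 3.10, 4.35 and 3.61 in the same order. Both were higher in p42 UT than in any other list, by a log2 difference of 1.01 and 1.02 from p30 UT.

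Of the 12 partner bins of all members that were in both UT lists, 6 passed 1.5-fold between p42 and p30, against 8.26% of the 44910 bins in both lists. They were the Il1rl1 partners at 55, 60, 65, 75 and 80 kb and the Il1rn partner at 25 kb upstream, all higher in p42. After LPS 1 of 10 passed, the Il1rl1 partner at 55 kb (log2 difference 0.71), against 6.46% of the 39114 bins in both lists. These shares describe bins that were chosen through loops, most of them in p42 UT, and neighboring bins share a region. Scaled to modelled contacts, 7 of 12 passed in UT and 0 of 10 after LPS, and with the median of start-site bins 5 of 12 and 1 of 10. After LPS the scaling to modelled contacts shifted all bins alike, so that their median log2 difference went from 0.01 to -0.33 and that of the 10 partner bins from 0.24 to -0.09.

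**Figure D3:**
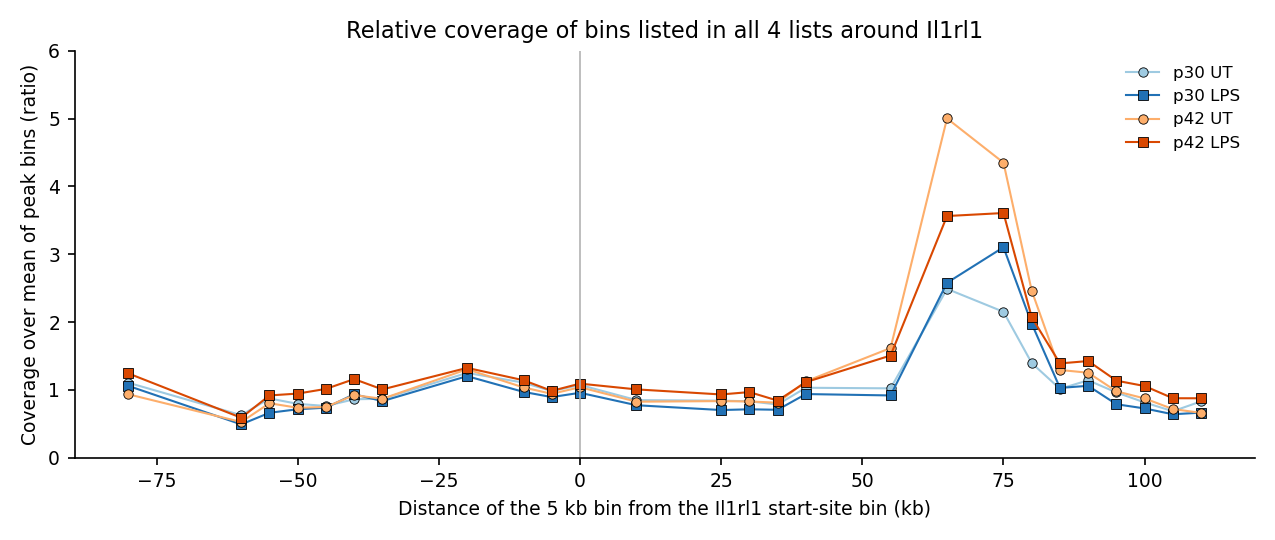
Coverage of 5 kb bins over the mean of peak bins in the same list (vertical axis, ratio) against the distance from the Il1rl1 start-site bin (horizontal axis, kb), for bins found in all 4 lists and joined by lines. The lists lie close together at the Il1rl1 start and separate at 65 and 75 kb, where p42 UT reached 5.00 and 4.35.

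The promoter of Il1rl1, chr1:40478537-40478786 on the plus strand, is shown as the anchor of 16 of the 25 listings of the 8 genes. It held no match to the 5 motifs.
Il1rl1: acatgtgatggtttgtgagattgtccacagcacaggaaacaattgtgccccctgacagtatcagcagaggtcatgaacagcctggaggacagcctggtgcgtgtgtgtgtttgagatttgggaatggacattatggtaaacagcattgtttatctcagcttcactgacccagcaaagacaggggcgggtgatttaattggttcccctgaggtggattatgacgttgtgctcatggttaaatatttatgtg
The partner at 65 kb, from 40540001 to 40545000, is shown by its motif matches as the partner with the highest coverage in both UT lists. It held 2 AP-1, 2 C/EBP, 2 NF-kB and 1 C/EBP-ATF match.
C/EBP, chr1:40540884-40540911 (+ strand): cctcctgtgaTTGCACAAgaacatcctc
NF-kB, chr1:40541439-40541467 (+ strand): agcccaggctGGGAGCTTCcagccaacta
AP-1, chr1:40542670-40542696 (+ strand): tgagagaccgTGATTCAgtgtaaaata
AP-1, chr1:40542692-40542718 (+ strand): aaatatggaaTGACTCAaaaatacact
C/EBP-ATF element, chr1:40542832-40542859 (+ strand): agttgttccaTGATGAAAgatgaccagc
NF-kB, chr1:40543304-40543332 (- strand): tcaatgaacaGGGAACTTCtgctgatctt
C/EBP, chr1:40544481-40544508 (+ strand): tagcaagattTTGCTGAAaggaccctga
None overlapped an exon. Over the 16 partner bins of all members the median was 2 AP-1, 2 C/EBP, 1 C/EBP-ATF, 0 NF-kB and 1 PU.1 match. Over all peak bins the medians were 1, 2, 1, 0 and 1, and 77.4%, 85.8%, 50.6%, 42.7% and 74.2% of them held a match.

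Il1r1, the signaling receptor, is on chromosome 1 with its canonical start at 40305746 on the plus strand. Its start-site bin had 1 loop, in p30 LPS, to a bin 25 kb downstream within the gene, with 17 contacts against 5.16 expected. The other lists could hold up to 18 contacts in p30 UT, 20 in untreated p42 and 18 in p42 with LPS at this pair without listing it, so that no difference was detectable. In p42 UT the same partner bin was joined to the bin next to the start site, 20 kb apart, with 25 contacts. The bin just upstream of the start site had 4 loops in untreated p30 and 2 in p30 with LPS, with a coverage of 5441 and 4743 reads, and was in neither p42 list. This was the highest coverage within 100 kb of the start in both p30 lists.

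Il1r2, the decoy receptor, is on the same chromosome with its canonical start at 40123858 on the plus strand. It had 1 loop in p30 LPS, 35 kb upstream with 13 contacts, and 1 in p42 UT, 45 kb upstream with 12 contacts. Both partners are intergenic bins toward Map4k4. Where a pair was missing, up to 10 to 12 contacts were possible, 1 or 2 fewer than the listed numbers. The next bin, which holds other start sites of Il1r2, had 2 loops in untreated p30, 0 in p30 with LPS, 4 in untreated p42 and 0 in p42 with LPS. The bin just upstream and a further start-site bin at 20 kb each had 1 loop, in p30 LPS alone. Within 100 kb p30 had 14 loops in UT and 4 after LPS, and p42 had 15 and 4, so that in both isoforms the LPS list held fewer. At equal size the numbers were 13, 2, 5 and 4.

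Il1rap, the shared receptor chain, lies on chromosome 16 with its start at 26400350 on the plus strand. No list held a loop with both bins, or any bin at all, within 100 kb of it.

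**Figure D4:**
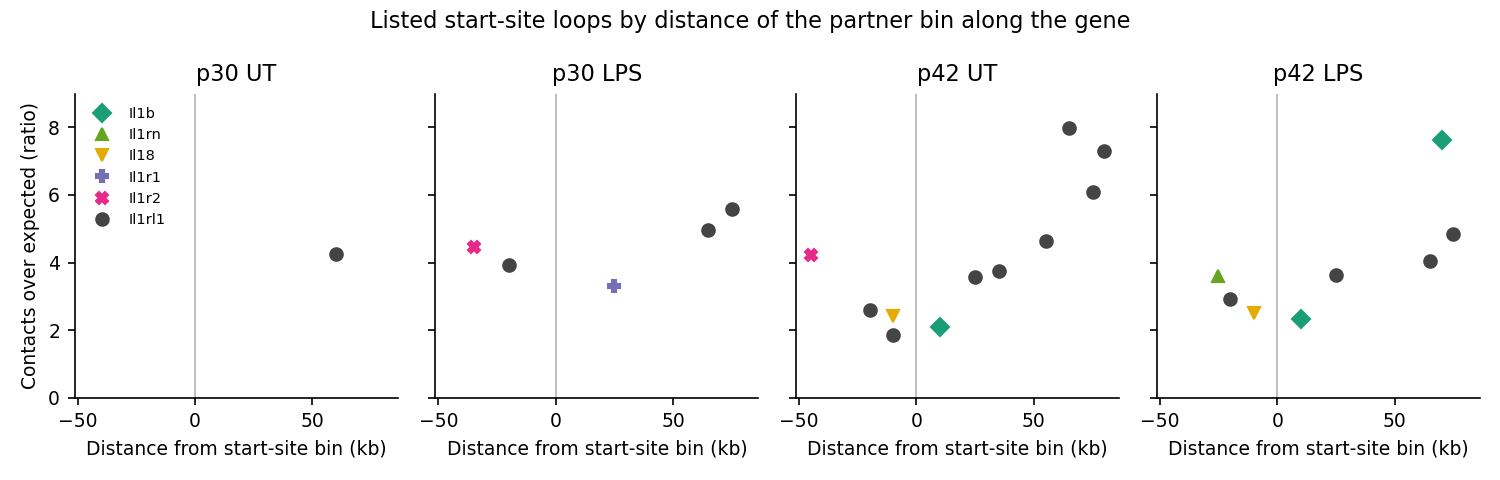
Contacts over expected (vertical axis, ratio) of the 25 listings against the distance of the partner bin along the gene (horizontal axis, kb), 1 panel per list and 1 symbol per gene. The highest ratios were 7.98 for Il1rl1 at 65 kb in p42 UT and 7.63 for Il1b at 70 kb in p42 LPS.

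The receptor genes Il1r2, Il1r1 and Il1rl1 form a cluster with Il1rl2, Il18r1 and Il18rap on chromosome 1, from 40113239 to 40590865. Loops with both bins in this cluster numbered 59 in untreated p30, 54 in p30 with LPS, 133 in untreated p42 and 66 in p42 with LPS. As a share of each list this was 0.0733%, 0.0571%, 0.0841% and 0.0840%. The p42 shares were thus higher than the p30 shares and nearly equal to each other. These shares rest on 54 to 133 loops a list, carry counting error, and their differences were not tested. The share of modelled contacts in these loops was 0.00514%, 0.00676%, 0.0154% and 0.00794%.

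Counts per gene were then compared between lists, taking (loops + 1) and a 2-fold difference. Between p42 UT and p30 UT 4 of the 8 genes had more and 0 had fewer, while 22.1% of all genes had more and 2.05% had fewer. They were Il1b, Il18, Il1r2 and Il1rl1. In lists of equal size 2 had more and 0 fewer, against 6.86% and 7.34% of all genes. Between p42 LPS and p30 LPS 3 had more, Il1b, Il1rn and Il18, and 2 had fewer, Il1r1 and Il1r2. Here 4.45% of all genes had more and 11.5% had fewer. LPS went with more loops in p30 at 3 genes, Il1r1, Il1r2 and Il1rl1, and fewer at 0 (9.44% and 5.26% of all genes). In p42, LPS went with more at Il1rn and fewer at Il1r2 (1.06% and 24.7% of all genes). At equal size that last contrast became 2 genes with more, Il1b and Il1rn, and 0 with fewer, against 5.5% and 7.01% of all genes. The contrast of p42 with p30 after LPS kept its counts of 3 and 2, against 6.21% and 8.17% of all genes at equal size. The contrast of LPS with UT in p30 kept 3 and 0, against 6.76% and 7.01%. These contrasts share lists and are not independent, and most rest on 1 or 2 loops a gene.

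Another 39 genes of the pathway were described for comparison. Of 7 other ligands and decoys, 1 had a start-site loop in any list, Il18bp, which encodes the IL-18 binding protein, with 2, 5, 8 and 5 loops in p30 (UT, LPS) and p42 (UT, LPS). At equal size Il18bp had 2, 5, 2 and 5. Of 6 other receptors 4 had loops, of 8 inflammasome and processing genes 5, and of 18 signaling genes 15. Of all protein-coding genes, 48.4% had a start-site loop in at least 1 list. Il18rap had 5 loops in untreated p30, 9 in p30 with LPS, 17 in untreated p42 and 16 in p42 with LPS. Between p42 UT and p30 UT 16 of the 39 had at least 2-fold more and 1 had fewer, against 22.1% and 2.05% of all genes. After LPS 2 had more and 7 had fewer, against 4.45% and 11.5%. LPS went with more at 8 and fewer at 2 in p30, against 9.44% and 5.26%, and with more at 0 and fewer at 12 in p42, against 1.06% and 24.7%. In lists of equal size the first contrast had 4 genes with more and 5 with fewer, against 6.86% and 7.34% of all genes, and the second had 5 and 5, against 6.21% and 8.17%. The third then had 5 and 5, against 6.76% and 7.01%, and the fourth had 6 and 5, against 5.5% and 7.01%. Irak1, a kinase of the receptor complex, had 2-fold more in p42 under both treatments, with 1, 1, 4 and 3 loops. So had Peli1, a ubiquitin ligase of this pathway, with 3, 1, 7 and 3 loops, although at equal size it had 3 in p30 UT and 1 in p42 UT. Peli1 also had 2-fold fewer after LPS in both isoforms, although at equal size it went from 1 to 3 in p42.

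The genes whose start-site contacts, scaled to the modelled contacts of each list, were most like those of Il1rl1 over the 4 lists were Sfxn1, 1700037C18Rik and Cluap1, the latter 2 with 1 shared start-site bin. The summed absolute difference, in contacts per 1000000 modelled contacts, was 0.840 for Sfxn1 and 1.65 for the other 2. For Il1b they were Wrnip1, Gsap and Fchsd1, with 0.600, 1.24 and 1.35. Il1rl1 had 11, 48, 181 and 61 start-site contacts in p30 (UT, LPS) and p42 (UT, LPS), and Sfxn1 had 17, 50, 182 and 66. Il1b had 0, 0, 36 and 61, and Wrnip1 had 0, 0, 33 and 54.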

How the data were processed

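H3K27ac HiChIP loops of HPC-7 cells with p30 or p42, UT or LPS, were analysed. The members and gene lists were chosen with earlier results of these data known. The submitters' processing notes name BWA 0.7.17 and the mm39 build, and the methods name pairtools and FitHiChIP. The authors pooled 2 replicates per group and deposited pairs of 5 kb bins at a q-value under 0.01, with the contact count, the expected count, the coverage of each bin in reads, the contact probability as a fraction, a bias ratio and the p-value and q-value. The caller corrects for coverage, so that a highly covered bin needs more contacts to be listed, and a pair missing from a list need not have 0 contacts.

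Start sites came from GENCODE on GRCm39, and all 21 chromosomes of the lists were found in it. The comparisons were of loops per gene, with 1 loop added and a 2-fold limit, of bin coverage over the mean of peak bins in the list, with a 1.5-fold limit, and of contacts in shared loops, by a two-sided exact binomial test against the lists' modelled contacts with Benjamini-Hochberg adjustment at 0.05. The contacts needed for listing were computed from the caller's own model. The statistics were tested on simulated data. Named pathway genes had a 2-fold difference in 1 direction between p42 and p30 in both treatments, or between LPS and UT in both isoforms. Similar genes had the smallest summed absolute difference in contacts after scaling to modelled contacts. Alternatives were lists of equal size, stricter q-values, other distances and start-site rules, and other scalings. Partner-bin coverage and windows of 100 kb were described after seeing the data. Python 3.11.15, numpy 2.4.6, pandas 2.3.3, scipy 1.17.1 and matplotlib 3.10.9 were used.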

Additional observations from a re-analysis of the deposited data

Results flagged for a closer look

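The change in start-site loops from UT to LPS ran in opposite directions in the 2 isoforms for all 8 genes together and for 2 single genes. The whole lists ran the same way, from 80489 to 94609 loops in p30 and from 158233 to 78591 in p42. Over all genes, 9.44% had at least 2-fold more in p30 after LPS and 24.7% had at least 2-fold fewer in p42. Over the 8 genes, p30 had a log2 ratio of (loops + 1) of 1.58 and p42 one of -0.42, which lie 2.00 apart. The ratios of Il1r2 rose by 1.00 with p30 and fell by 1.00 with p42, again 2.00 apart, and rest on 1 loop in each isoform. In p30 the canonical start-site bin, the bin just upstream and the start-site bin at 20 kb each went from 0 loops to 1. The next bin downstream, with other start sites of Il1r2, went from 2 loops to 0 in p30 and from 4 to 0 in p42. Within 100 kb the loops went from 14 to 4 in p30 and from 15 to 4 in p42, the same direction in both. The ratios of Il1rl1 were 1.00 with p30 and -0.85 with p42, and thus 1.85 apart. With 1 pooled list per group, none of these differences was tested. In lists of equal size the p42 ratio over the 8 genes was 0.85, so that both isoforms then had more loops after LPS. Equal size left p42 LPS whole and held p42 UT to q-values of at most 6.98e-05. With a q-value under 0.001 in every list the p42 ratio over the 8 genes was -0.22. At equal size the p42 ratio was 0.32 for Il1rl1 and 0.00 for Il1r2, so that neither gene then had opposite directions.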

How the results depend on the processing

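No paired analysis was possible because each list pools both replicates, and for the same reason no replicate could be left out. Loops of the 8 genes are given for p30 (UT, LPS) and then p42 (UT, LPS), against 1, 5, 11 and 8. They numbered 0, 3, 6 and 5 at a q-value under 0.001 and 0, 0, 3 and 1 under 0.00001. With 1 bin on each side they numbered 9, 14, 30 and 15, and with all annotated start sites 7, 13, 27 and 12. At equal size p42 UT fell to 4. The excess of p42 over p30 in UT kept its direction under all 7 alternatives run, with a log2 ratio of 1.32 to 2.81. After LPS the ratio of 0.58 turned to -0.11 with all start sites. The LPS to UT ratio in p30, 1.58, was 0.00 at a q-value under 0.00001, where neither list had a loop. In p42 the ratio of -0.42 turned to 0.85 at equal size, and stayed negative under the other alternatives run, from -0.22 to -1.11. The number of member loops that differed in contacts stayed at 0 under both alternatives, of 3 and 6 tested. The LPS to UT coverage difference of Il1b in p42, 0.60, was 0.27 per modelled contact and 0.74 with the median of start-site bins. A restriction to loops in all 4 lists gave no value, since none of the 16 pairs was in all of them. Depth limits what a missing pair can show: in 5 of 39 cases as many contacts as the highest listed could be present. In the other cases the bound was lower, but no difference in contacts was tested.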
